A study of Mus musculus with 12 samples.

Results

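The genes described here are 10 liver genes known either for expression around the central vein or as targets of Wnt/β-catenin signalling, namely Glul, Slc1a2, Rhbg, Gulo, Lect2, Tbx3, Axin2, Rnf43, Znrf3 and Lgr5. They were taken by symbol from the table of exon read counts, where they are 10 of 38087 genes, and all 10 were among the 14170 genes that passed the filter on low counts. The libraries were made from liver of male germ-free C57BL/6J mice aged 13 to 16 weeks, at zeitgeber time 2. One group of 6 libraries came from mice given rat ghrelin, a stomach hormone that stimulates appetite, at 10 µg per mouse under the skin each day for 5 days. The other 6 came from mice that received PBS, the vehicle, on the same schedule. The design sets the hormone against its vehicle in animals that carry no gut bacteria. The peptide is the rat form given to mice, and no group with a microbiota was used here. No label says that each library comes from a separate animal, so the p-values measure the spread between these libraries, which may be technical.

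Blood enters the liver lobule at the portal vein and leaves at the central vein, and hepatocytes express different genes along that path. Endothelial cells at the central vein release Wnt proteins and R-spondin 3, which stabilise β-catenin in the nearest hepatocytes. There β-catenin acts with TCF factors to raise genes of glutamine synthesis, ammonium and glutamate transport and drug metabolism. It also raises inhibitors that limit the same pathway. The RNA here came from whole liver, so fewer pericentral cells and less RNA per pericentral cell cannot be told apart.

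The core sequence that TCF factors bind, searched here as ATCAAAG on both strands (CTTTGAT on the other strand), was looked for from 250 bases before to 50 bases after the RefSeq start of each gene. Such windows were at hand for 5 of the 10 genes, in 6 windows on GRCm38.p6. They are shown because part of the 10 genes are grouped as targets of the pathway that acts through TCF factors. Slc1a2 (chr2:102706188-102706487, plus strand) and Lect2 (chr13:56548489-56548788, minus strand) each held 1 match. Glul (chr1:153899679-153899978, plus strand) and Axin2 (chr11:108920099-108920398, plus strand) held none, as did both windows of Rnf43. Capitals mark the match and all are written 5′ to 3′ on the gene's own strand.
Slc1a2: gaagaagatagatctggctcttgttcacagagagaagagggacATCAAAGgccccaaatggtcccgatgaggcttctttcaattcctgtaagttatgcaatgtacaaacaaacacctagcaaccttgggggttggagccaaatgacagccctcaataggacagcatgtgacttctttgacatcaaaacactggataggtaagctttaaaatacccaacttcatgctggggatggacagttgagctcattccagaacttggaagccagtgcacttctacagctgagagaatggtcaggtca
Lect2: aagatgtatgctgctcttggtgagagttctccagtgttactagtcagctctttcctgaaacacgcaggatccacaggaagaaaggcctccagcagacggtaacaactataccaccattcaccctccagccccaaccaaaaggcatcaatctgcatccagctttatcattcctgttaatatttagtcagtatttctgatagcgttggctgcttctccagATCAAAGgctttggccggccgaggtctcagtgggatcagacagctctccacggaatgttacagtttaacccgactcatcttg
Glul: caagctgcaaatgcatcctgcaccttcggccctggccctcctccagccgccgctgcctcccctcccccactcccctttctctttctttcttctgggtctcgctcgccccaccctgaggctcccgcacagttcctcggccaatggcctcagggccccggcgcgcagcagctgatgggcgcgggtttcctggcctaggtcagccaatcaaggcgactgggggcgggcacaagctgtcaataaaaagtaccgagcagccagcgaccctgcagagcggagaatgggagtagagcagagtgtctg
Axin2: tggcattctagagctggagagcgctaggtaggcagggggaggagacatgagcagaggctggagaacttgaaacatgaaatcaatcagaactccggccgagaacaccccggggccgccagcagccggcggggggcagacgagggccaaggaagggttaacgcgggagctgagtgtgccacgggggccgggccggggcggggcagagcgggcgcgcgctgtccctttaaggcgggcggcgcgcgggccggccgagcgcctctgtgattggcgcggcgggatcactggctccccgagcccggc
The match in Slc1a2 lies 207 to 201 bases before the RefSeq start, and the one in Lect2 lies 32 to 26 bases before it. The Slc1a2 window lies inside the gene's longer GENCODE extent. Over all RefSeq windows of 300 bases the same letters were found in 1225 of 32851, or 3.73%. A match is a description of the letters and not of a bound site. Only exact matches inside these windows were sought, so a window without one does not show that the gene lacks a TCF site.

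All 10 genes are annotated as protein-coding, and on GRCm38 (GENCODE M21) they have the following positions. Glul lies at chr1:153899944-153909723 (plus strand), Slc1a2 at chr2:102658659-102790784 (plus), and Tbx3 at chr5:119670669-119684724 (plus). Lgr5 lies at chr10:115450311-115587780 (minus), Lect2 at chr13:56542464-56548502 (minus), and Gulo at chr14:65986786-66009207 (minus). Chromosome 11 carries Znrf3 at 5276324-5444847 (minus), Rnf43 at 87662722-87735539 (plus) and Axin2 at 108920349-108950783 (plus). Rhbg was placed by symbol at chr3:88242874-88254709 (minus), because the identifier in the count table is absent from that annotation, and it shares 1190 exon bases there with Gm38392 on the same strand. Whether the counting split reads between these is not given in the sources used here. Slc1a2, Tbx3 and Axin2 overlap an antisense gene by 115 to 209 exon bases, and Glul overlaps Teddm2 on the other strand by 116. Glul also shares 93 exon bases with the microRNA gene Mir8114 on its own strand, for which no count was matched. The counts of the partners on the other strand, 14 to 348 over all libraries against 1491 to 232186 for the 4 genes, were small.

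None of the 10 genes passed the test between ghrelin and PBS livers after adjustment. Tbx3 and Rhbg averaged higher with ghrelin and Slc1a2 averaged lower, and these 3 were the members with an unadjusted p under 0.05. The direction was mixed: 5 log2 fold changes were positive and 5 negative, with a median of 0.05 and a range of -0.33 to 0.53. The median over all 14170 genes was 3.2e-05. For no member were the groups free of overlap. The test throughout is edgeR's two-sided quasi-likelihood test with Benjamini-Hochberg adjustment over all genes, at a threshold of 0.05. It called 15 genes in the whole table, 0.106% of those tested, with 0.0423% higher and 0.0635% lower with ghrelin. That count rests on single libraries, since it was 0 without ghrelin 1 or ghrelin 3 and 32 without ghrelin 4. At an unadjusted p under 0.05 it listed 13.4% of all genes, 6.44% higher and 6.94% lower. Against that share, 3 of 10 members is a small count from which nothing further is read. Groups did not overlap for 0.826% of all genes.

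**Figure D1:**
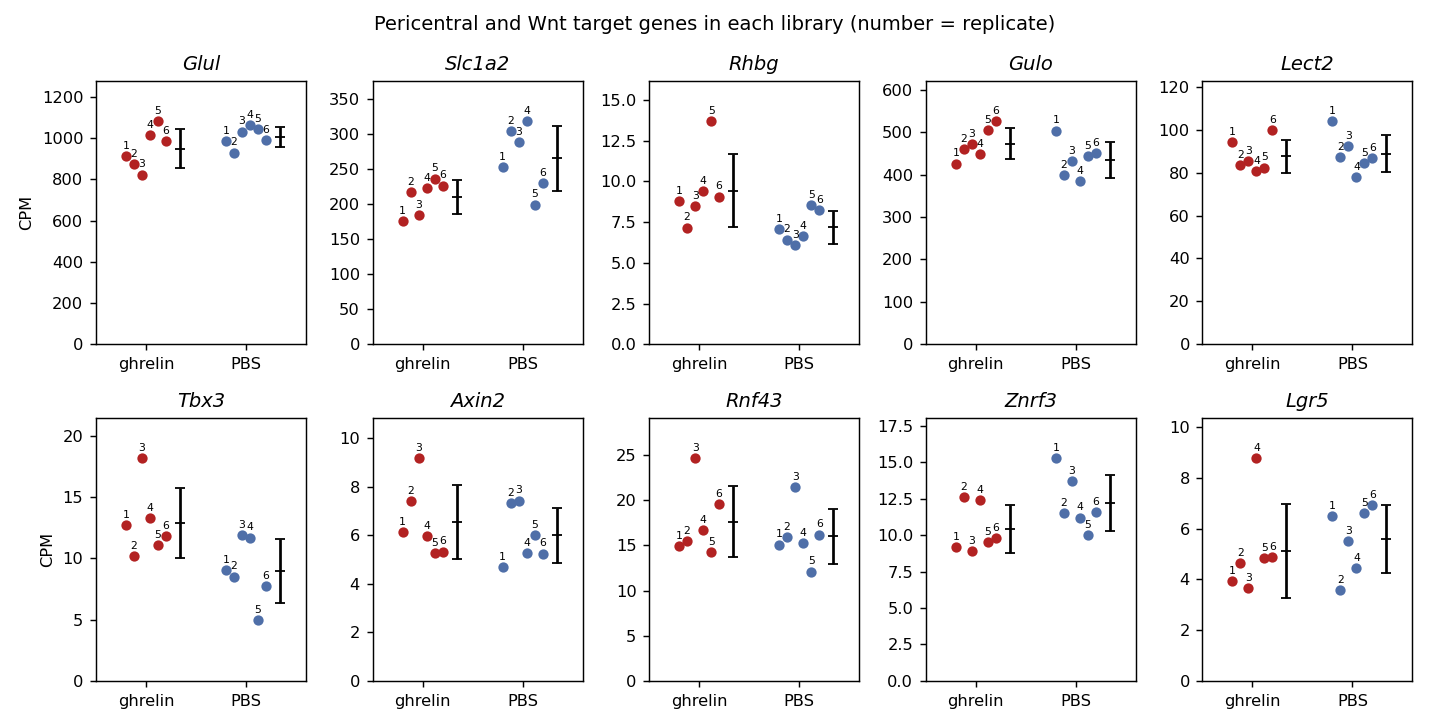
Level of each of the 10 genes in every library, in TMM-scaled CPM on the vertical axis, with ghrelin libraries left and PBS libraries right. Points are libraries and bars give the mean and SD of 6. The groups overlap in all 10 panels, with Tbx3 averaging 12.9 with ghrelin against 8.97 with PBS and Slc1a2 averaging 210 with ghrelin against 265 with PBS.

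Glul encodes glutamine synthetase, which in liver is made in a narrow ring of hepatocytes around the central vein and removes ammonia as glutamine. Levels are given as CPM, the reads of a gene per 1000000 reads of the library, scaled by the TMM method. Glul had a lowest value of 824, a median of 951 and a highest of 1083 CPM in ghrelin livers, against 930, 1011 and 1064 CPM in PBS livers. Ghrelin libraries held both the lowest and the highest values, and 3 of the 6 lay below every PBS library. The means were 949 ± 95.8 CPM with ghrelin and 1008 ± 49.4 CPM with PBS (SD, n = 6 each). The log2 fold change was -0.09 (SE 0.07), with a 95% interval of -0.24 to 0.06 and an adjusted p of 0.628 by edgeR.

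Slc1a2 encodes the glutamate transporter GLT-1, which takes up glutamate in the same perivenous cells. It ranged from 176 through a median of 220 to 236 CPM in ghrelin livers, against 199, 270 and 318 CPM in PBS livers. Of the ghrelin libraries 2 lay below every PBS library, and none reached above 236 CPM, while 4 PBS libraries were at 252 CPM or more. The log2 fold change was -0.33 (SE 0.11, interval -0.57 to -0.10), and the adjusted p was 0.235 by edgeR. The 2 lowest PBS values, 199 and 230 CPM, belonged to PBS 5 and PBS 6. With both left out, a choice made after seeing the values, the log2 fold change was -0.47 with an adjusted p of 0.0355. That was the only one of 23 alternative fits in which any of the 10 genes was called.

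Rhbg encodes an ammonium transporter of the Rhesus family, found on perivenous hepatocytes. It had 7.16, 8.94 and 13.7 CPM as lowest, median and highest values in ghrelin livers, against 6.10, 6.85 and 8.54 CPM in PBS livers. Of the 6 ghrelin libraries 4 lay above every PBS library. The mean was 9.44 ± 2.25 CPM with ghrelin and 7.17 ± 1.01 CPM with PBS (SD, n = 6 each). For Rhbg the log2 fold change was 0.39 (SE 0.14, interval 0.10 to 0.69, edgeR adjusted p 0.265). Without ghrelin 5, which held the highest value, it was 0.26 (SE 0.11, adjusted p 0.391).

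Gulo encodes L-gulonolactone oxidase, the last enzyme of vitamin C synthesis in mice. Its lowest, median and highest values were 426, 466 and 526 CPM in ghrelin livers, against 384, 437 and 504 CPM in PBS livers. Gulo had a log2 fold change of 0.12 (SE 0.07, interval -0.04 to 0.28, edgeR adjusted p 0.510). Lect2 encodes a secreted hepatocyte protein first described as a chemotactic factor for leukocytes, and it is a known β-catenin target in liver. It had 80.7, 84.4 and 100 CPM in ghrelin livers, against 78.0, 87.2 and 104 CPM in PBS livers. These ranges nearly coincided, and the log2 fold change of -0.02 (SE 0.07) had an interval of -0.18 to 0.14 and an adjusted p of 0.939.

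Tbx3 encodes a T-box transcription factor and a known β-catenin target in liver. It had 10.2, 12.2 and 18.2 CPM as lowest, median and highest values in ghrelin livers, against 4.99, 8.76 and 11.9 CPM in PBS livers. Of the ghrelin libraries 3 lay above every PBS library, and the lowest value of all was that of PBS 5. The means were 12.9 ± 2.82 CPM with ghrelin and 8.97 ± 2.59 CPM with PBS (SD, n = 6 each). The log2 fold change of 0.53 (SE 0.18, interval 0.13 to 0.92) was the largest of the 10 in size, with an edgeR adjusted p of 0.259. Over the 23 alternative fits it stayed positive, between 0.33 and 0.63, with adjusted p from 0.0783 to 0.428. PBS 5 and PBS 6 held the lowest Tbx3 values of the PBS libraries, 4.99 and 7.71 CPM. With both left out, a choice made after seeing the values, Tbx3 no longer had an unadjusted p under 0.05 by edgeR.

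Axin2, Rnf43 and Znrf3 are Wnt targets that limit the pathway. Axin2 is a scaffold of the complex that degrades β-catenin, and Rnf43 and Znrf3 are membrane ubiquitin ligases that remove Frizzled receptors from the cell surface. Axin2 had 5.26, 6.05 and 9.20 CPM in ghrelin livers, against 4.71, 5.63 and 7.44 CPM in PBS livers, with a log2 fold change of 0.12 (SE 0.16, interval -0.21 to 0.46). Ghrelin 3 alone lay above the PBS range, and without it the value was 0.0028 (SE 0.14). Rnf43 had 14.3, 16.1 and 24.7 CPM in ghrelin livers, against 12.1, 15.6 and 21.5 CPM in PBS livers, with a log2 fold change of 0.14 (SE 0.14, interval -0.16 to 0.45). Here too ghrelin 3 was the single library above the PBS range, and without it Rnf43 was at 0.02 (SE 0.12).

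Znrf3 averaged lower with ghrelin. It had 8.91, 9.66 and 12.6 CPM in ghrelin livers, against 9.99, 11.5 and 15.3 CPM in PBS livers. Of the ghrelin libraries 4 lay below every PBS library. The log2 fold change was -0.23 (SE 0.12, interval -0.49 to 0.02), and the adjusted p was 0.412 by edgeR, against 0.772 for Axin2 and 0.708 for Rnf43.

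Lgr5 encodes a receptor for R-spondins, which protect Frizzled receptors from the ligases just named. It had 3.66, 4.74 and 8.79 CPM in ghrelin livers, against 3.58, 6.00 and 6.93 CPM in PBS livers. Ghrelin 4 alone lay above the PBS range. The log2 fold change was -0.12 (SE 0.21, interval -0.57 to 0.33, edgeR adjusted p 0.851), and without ghrelin 4 it was -0.35 (SE 0.17, adjusted p 0.348). With 66 to 187 reads per library, Lgr5 had the fewest reads of the 10 genes and the widest interval.

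**Figure D2:**
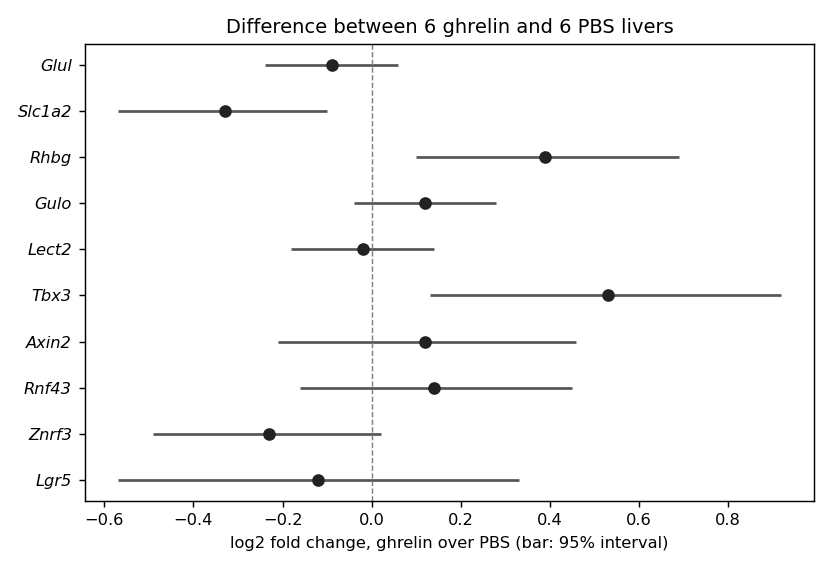
Log2 fold change of ghrelin over PBS for each of the 10 genes on the horizontal axis, with its 95% interval computed from the edgeR fit. The intervals are not adjusted for the number of genes tested, and none of the 10 genes was called after adjustment. Points right of 0 are higher with ghrelin. Tbx3 at 0.53 and Rhbg at 0.39 lie farthest right and Slc1a2 at -0.33 farthest left, and the intervals of the other 7 genes include 0.

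The 10 genes differ widely in level. Divided by exon length, as CPM per kb, Glul was highest at 286 ± 28.8 in ghrelin livers and 303 ± 14.9 in PBS livers (SD, n = 6 each). Gulo followed at 209 with ghrelin and 192 with PBS, Lect2 at 95.4 with ghrelin and 96.8 with PBS, and Slc1a2 at 16.0 with ghrelin and 20.2 with PBS. Each of these 4 stood apart from the next in both groups, with no overlap between libraries. The order rests on exon lengths from GENCODE M21, while the annotation used for counting is not known. Before the division Slc1a2 stood above Lect2, at 210 against 87.7 CPM with ghrelin and 265 against 88.9 CPM with PBS. The length for Rhbg is that of the identifier matched by symbol. Rhbg (4.87 with ghrelin, 3.70 with PBS) and Rnf43 (2.69 with ghrelin, 2.44 with PBS) overlapped each other in both groups. Tbx3 was at 1.94 with ghrelin and 1.35 with PBS, Znrf3 at 1.32 with ghrelin and 1.55 with PBS, and Axin2 at 1.19 with ghrelin and 1.09 with PBS, all in CPM per kb. Tbx3 thus stood above Znrf3 in ghrelin livers and below it in PBS livers, and the ranges of these 2 genes overlapped in both groups, at 1.54 to 2.74 for Tbx3 and 1.13 to 1.59 for Znrf3 with ghrelin, and 0.754 to 1.79 for Tbx3 and 1.27 to 1.94 for Znrf3 with PBS. Lgr5 was lowest, at 0.499 with ghrelin and 0.545 with PBS, below the lowest Axin2 library in both groups.

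**Figure D3:**
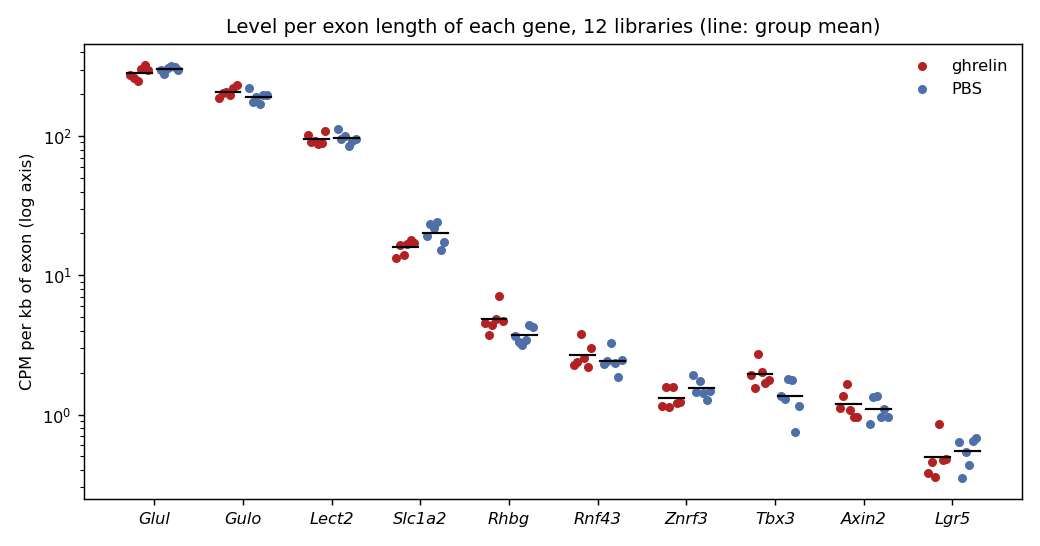
Level of the 10 genes in CPM per kb of exon on a log axis, ghrelin and PBS side by side, ordered by level. Points are libraries. The levels run from 286 for Glul to 0.499 for Lgr5 in ghrelin livers, and from 303 to 0.545 in PBS livers.

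The spread between libraries of a group ran from a coefficient of variation of 4.9% (Glul with PBS) to 36.4% (Lgr5 with ghrelin). The value for Glul with ghrelin was 10.1%, and that for Lgr5 with PBS was 24.1%. Across the 12 libraries no pair of members had a correlation that passed a test. Of 45 pairs, 18 had a positive and 27 a negative Pearson r, the median was -0.04, and none passed Benjamini-Hochberg adjustment over the 45 in a permutation test, on r or on Spearman's rho. The pairs named next were those with the smallest p, picked after their values were seen. Tbx3 and Rnf43 had r = 0.73 (permutation p = 0.00827, adjusted p = 0.263) and rho = 0.53 (permutation p = 0.0794), and r was 0.76 after the group means were subtracted. Without the 2 libraries farthest from the median of Tbx3, r was 0.24. Glul and Axin2 had r = -0.70 (permutation p = 0.0117, adjusted p = 0.263) and rho = -0.48 (permutation p = 0.120). That r was -0.68 after subtracting group means and -0.28 without the 2 libraries farthest from the median of Glul. Leaving out the extremes of 1 gene narrows its range, so these smaller values do not show whether 2 libraries carried r.

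For Glul and Axin2, the genes most alike over the 12 libraries were sought among 12818 genes of at least 1 CPM, by Pearson r of log2 CPM after subtracting group means. Nearest to Glul was A930039A15Rik (r = 0.99), followed by Pan3 (0.91) and Mad1l1 (0.91). The count of A930039A15Rik was 80.9% to 83.6% of that of Glul in every library, and neither its identifier nor its symbol is in the annotations used here. Whether the 2 rows share reads was not tested. Nearest to Axin2 were Prmt3 (0.89), Chst14 (0.88) and Apof (0.88). With 12 libraries and 12818 genes compared, these values describe the ranking only.

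Among the ligands of the pathway, 8 of 10 listed Wnt and secretion genes were tested and none was called, with 6 positive, 2 negative and a median of 0.25 on the log2 scale. Wnt2, made by central vein endothelium, averaged 5.45 ± 0.759 CPM with ghrelin and 4.52 ± 0.989 CPM with PBS (SD, n = 6 each), with 0.27 on the log2 scale (SE 0.15, edgeR adjusted p 0.473). Wnt9b, from the same cells, had 0.36 (SE 0.24), Wnt5a had 0.58 (SE 0.31), and Wls, which carries Wnt proteins to the surface, had -0.13 (SE 0.09). Of 4 R-spondins only Rspo3 was tested, at 7.17 CPM with ghrelin and 7.24 CPM with PBS and a log2 fold change of -0.01 (SE 0.14). Rspo2 and Rspo4 had 1 read each over all libraries.

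Of 15 listed receptors and co-receptors 10 were tested. None was called, 7 were positive and 3 negative, and the median was 0.13. In the Frizzled family 3 receptors had an unadjusted p under 0.05, all higher with ghrelin: Fzd6 at 0.41 (SE 0.13), Fzd5 at 0.42 (SE 0.17) and Fzd7 at 0.33 (SE 0.13) on the log2 scale. They were 3 of 10 receptors tested, where 6.44% of all genes were higher at that threshold. Fzd6 averaged 6.26 ± 1.13 CPM with ghrelin and 4.68 ± 0.668 CPM with PBS (SD, n = 6 each), and its adjusted p of 0.221 was the smallest of the list by edgeR. Ryk, a Wnt receptor outside that family, had -0.11 (SE 0.05, adjusted p 0.389). Fzd10 had 0 reads over all libraries, and a count of 0 allows up to 3 reads, or 0.0127 CPM.

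Inside the cell, 11 of 11 genes of the β-catenin destruction complex and Dishevelled were tested and none was called, with 6 positive and 5 negative and a median of 0.01. The 4 with the smallest p were the kinase gene Csnk1a1 at -0.13 (SE 0.06), Amer1 at 0.26 (SE 0.14), Dvl2 at 0.29 (SE 0.19) and the kinase gene Gsk3b at -0.13 (SE 0.09). Of 8 TCF and LEF factors and coactivators 6 were tested, none was called, and the median was 0.03. Tcf7l2, the main TCF factor of hepatocytes, averaged 6.60 ± 0.885 CPM with ghrelin and 6.90 ± 0.596 CPM with PBS (SD, n = 6 each), a log2 fold change of -0.07 (SE 0.10). Tcf7 had -0.06, Bcl9 had 0.10 and Pygo2 had 0.06.

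Of the inhibitors listed, 4 of 13 were tested, none was called, and the median was 0.10. Notum, an enzyme that inactivates Wnt proteins and is itself a target, had 0.09 (SE 0.12), Nkd1 had -0.07, Dkk3 had 0.26 and Sfrp1 had 0.10. Of 8 further Wnt targets 7 were tested and none was called, with 3 positive and 4 negative and a median of -0.06. Myc averaged 1.70 ± 0.480 CPM with ghrelin and 2.55 ± 1.27 CPM with PBS (SD, n = 6 each), with -0.59 on the log2 scale (SE 0.29, edgeR adjusted p 0.406). PBS 4 and PBS 5 had 4.16 CPM each and the other PBS libraries 1.31 to 1.95 CPM, within the ghrelin range of 1.01 to 2.41 CPM. Without PBS 5 the Myc value was -0.38, and without PBS 4 it was -0.40. Tnfrsf19 had -0.20 and Sp5 had 0.23. Nkd1, Notum and Tcf7 stand in 2 of these lists.

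Most of the other pericentral hepatocyte genes had negative values. All 21 were tested, with 5 positive and 16 negative, a median of -0.22 on the log2 scale, and 10 with an unadjusted p under 0.05, all lower with ghrelin. Over all genes tested, 6.94% were lower at that threshold and 50% had a negative value. The list was written with the lower level of its Cyp2c genes known, so it is not independent evidence of that direction. Its summed level was 12986 to 15146 CPM in ghrelin livers, against 15093 to 18483 CPM in PBS livers, so the ranges overlapped slightly. Without the Cyp2c genes 17 remained, with 5 positive, 12 negative, 6 lower at an unadjusted p under 0.05 and a median of -0.20. Their summed level was 10971 to 13018 CPM in ghrelin livers, against 12279 to 15076 CPM in PBS livers, a wider overlap. Both summed levels are weighted to the most abundant gene of the list, Cyp2e1. It had 5663 to 7620 CPM in ghrelin livers, against 6722 to 8424 CPM in PBS livers. The sums therefore do not describe the listed genes equally. These 17 genes were also chosen with earlier results of these data known, so they are not independent evidence of the direction either.

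A single gene of that list was called, Cyp2c37, an arachidonic acid and drug hydroxylase of the cytochrome P450 family. It had 200 to 261 CPM in ghrelin livers, against 242 to 371 CPM in PBS livers, and it fell by 0.55 on the log2 scale (SE 0.09, edgeR adjusted p 0.0379). The call was lost when any of 9 of the 12 libraries was left out, with adjusted p between 0.0558 and 0.125. Cyp2c29 had 747 to 1065 CPM in ghrelin livers, against 1071 to 1604 CPM in PBS livers. These groups did not overlap, and the log2 fold change was -0.63 (SE 0.12) with an adjusted p of 0.0550. Cyp2c54 had -0.42 (SE 0.12), and Cyp3a11 had -0.79 (SE 0.22). Cyp2c genes are neighbours of similar sequence, and how alike those named are was not measured here. How any reads shared between them were counted is not given in the sources used here.

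Genes of the portal end of the lobule were also mostly negative. All 21 listed genes were tested, none was called, 5 were positive and 16 negative, and the median was -0.09. At an unadjusted p under 0.05, 2 were higher and 5 lower with ghrelin, against 6.44% higher and 6.94% lower over all genes. Tat, an enzyme of tyrosine breakdown, averaged 1677 ± 369 CPM with ghrelin and 2601 ± 464 CPM with PBS (SD, n = 6 each), with -0.63 on the log2 scale (SE 0.14, edgeR adjusted p 0.115). The urea cycle genes Cps1 and Arg1 had -0.19 (SE 0.06) and -0.25 (SE 0.08). Cps1 had 8106 to 9552 CPM in ghrelin livers, against 9593 to 10856 CPM in PBS livers. Its groups did not overlap, as was so for 0.826% of all genes. Cyp2f2, a periportal cytochrome P450, averaged 992 ± 82.9 CPM with ghrelin and 770 ± 109 CPM with PBS (SD, n = 6 each), with 0.37 on the log2 scale (SE 0.09, adjusted p 0.136). The summed level of the list was 24130 to 28184 CPM with ghrelin, against 27709 to 31864 CPM with PBS.

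**Figure D4:**
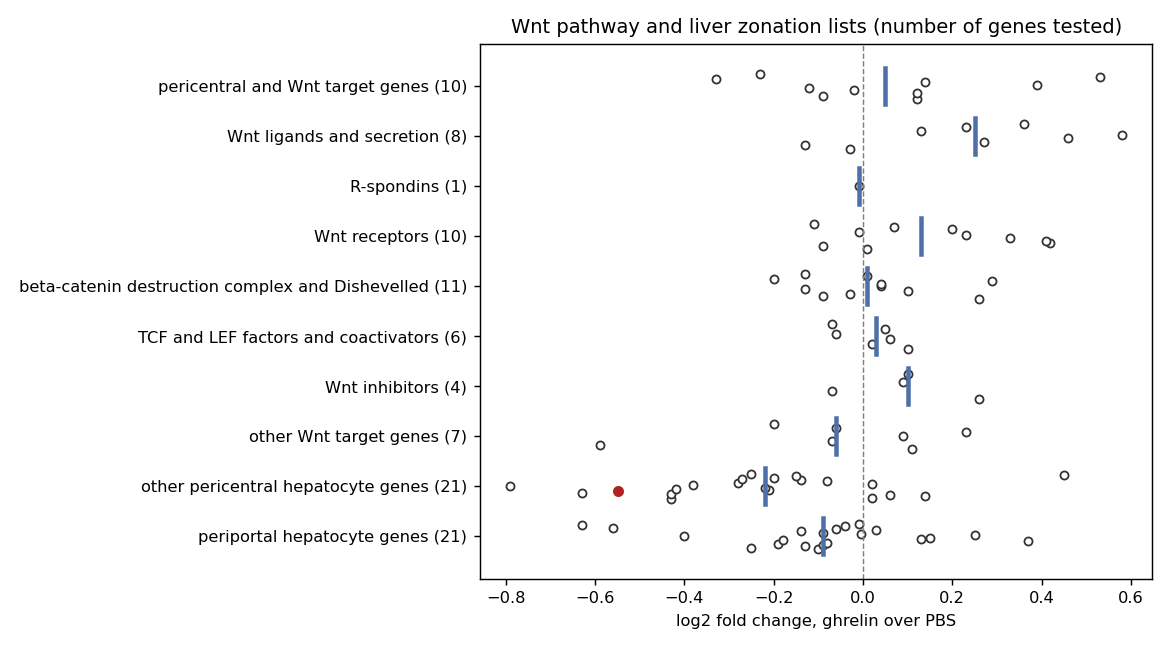
Log2 fold changes of ghrelin over PBS on the horizontal axis for each gene of the Wnt pathway and zonation lists, 1 row a list, with the list's median as a bar and the number of genes tested in parentheses. The filled point is Cyp2c37 at -0.55, the single gene called. The medians lie between -0.22 for the other pericentral genes and 0.25 for the Wnt ligands, and the values of the 10 genes described here spread on both sides of 0.

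The 12 libraries held 15775059 to 21457627 counts in ghrelin livers and 18746597 to 22302533 in PBS livers. Albumin took 4.89% to 6.45% of counts with ghrelin and 5.36% to 7.86% with PBS, and the 4 hepatocyte markers matched summed to 62006 to 78019 CPM with ghrelin and 66007 to 96643 with PBS. Markers of other cell types were detected in both groups, and none of the 8 endothelial, 7 stellate, 5 cholangiocyte and 5 Kupffer cell genes was called. Their summed levels were 353 to 391 CPM with ghrelin and 353 to 401 with PBS for endothelial cells, and 389 to 454 with ghrelin and 405 to 459 with PBS for stellate cells. For cholangiocytes the sums were 24.9 to 32.1 CPM with ghrelin and 20.1 to 32.4 with PBS, and for Kupffer cells 171 to 237 with ghrelin and 130 to 249 with PBS. No marker tested was at 0 in a whole group. Each sum is weighted to its most abundant genes, so similar sums do not show that every marker was similar. In the stellate list 1 marker was higher and 1 lower with ghrelin at an unadjusted p under 0.05 by edgeR. Over all genes these shares were 6.44% higher and 6.94% lower. The part of these cells in the values above was not tested.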

How the data were processed

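Per the labels' protocols, ribosomal RNA was depleted and libraries were made with a stranded total RNA kit and read from both ends. The aligner was STAR 2.4.0i and the build mm10, per the submitters' processing notes. The deposited values are raw exon read counts per gene that the authors did not normalise. How reads were counted, by which annotation and with which strand setting, is not given in the sources used here.

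Groups came from the titles and treatment labels. Counts were tested with edgeR 4.0.16 in R 4.3.3 (TMM scaling, filterByExpr with a minimum count of 10 and a total of 15, quasi-likelihood test, Benjamini-Hochberg over 14170 genes, threshold 0.05). For edgeR fits the SE is the absolute log2 fold change over the square root of the test's F statistic. Intervals at the 95% level were built from that SE for each gene, without adjustment over genes. The scripts were tested on simulated data. Correlations used log2 CPM with a prior count of 2 and 100000 permutations, with Python 3.11.15. The members and lists were chosen with earlier results of these data known. Genes named are all members, from each list up to 4 tested genes with the smallest p and every called gene, and the 3 genes nearest to Glul and to Axin2. Cyp2e1 is named besides for its level alone, and its values in the alternatives are not given. Of the cell type markers only sums and counts of genes are given, with the share of albumin. Amer1 was matched by identifier under an older symbol, and 1 of 5 hepatocyte markers (Tf) was not matched. No 2 libraries of a group agreed within sampling noise (chi-square per degree of freedom 10.8 to 44.4 over 30 pairs). Alternatives were other scalings, filters and tools (limma 3.58.1 voom, DESeq2 1.42.0), a replicate block and leaving out libraries. Exon lengths and positions are from GENCODE M21, and promoter windows from RefSeq on GRCm38.p6.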

Additional observations from a re-analysis of the deposited data

Results flagged for a closer look

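In 2 of the 20 groups of 6 values checked for the 10 genes, 1 library stood apart from the other 5 by Dixon's criterion, which chance meets in about 1 group in 20. Rhbg was at 13.7 CPM in ghrelin 5, where the next highest ghrelin library had 9.41 CPM, a gap of 0.659 of the group's range. Lgr5 was at 8.79 CPM in ghrelin 4, where the next highest had 4.89 CPM, a gap of 0.76 of the range. The critical value for 6 samples is 0.625.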

How the results depend on the processing

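Over 23 alternative fits, the sign held in every fit for 8 of the 10 genes, Lect2 and Lgr5 being the exceptions, and 0 of the 10 were called except with PBS 5 and PBS 6 both left out, where 1 was (Slc1a2). Over all genes, 15 calls became 63 without a low-count filter, 204 with DESeq2, 9 with robust edgeR, 58 with the replicate block and 148 with PBS 5 and PBS 6 left out, and 0 to 32 when single libraries were left out. It was 0 without ghrelin 1, where 1675 genes had an unadjusted p under 0.05, and also without ghrelin 3, where 1536 had. It was 32 without ghrelin 4, 24 without PBS 5, 23 without PBS 6, 9 without ghrelin 2, 6 without ghrelin 6 and 5 without PBS 3. Same-numbered libraries deviated together (r over 0.1) in 3 of 6 pairs, and 4 of 12 libraries correlated best with their own number. Since not every pair was over 0.1, the libraries were not treated as paired, and whether the numbers pair them is not settled. Reversed values were Rspo3 at 0.0023 with upper quartile scaling, 0.0048 with voom and 0.09 without PBS 5 and PBS 6, and with those 2 left out also Lgr5 at 0.04, Pygo2 at -0.03, Bcl9 at -0.03, Nkd1 at 0.01, Tnfrsf19 at 0.03 and Sp5 at -0.02. With single libraries left out, the log2 fold change ran from -0.08 to 0.08 for Rspo3, -0.06 to 0.04 for Lect2, -0.01 to 0.10 for Pygo2, -0.0036 to 0.24 for Bcl9, -0.09 to 0.62 for Sfrp1 and -0.16 to 0.06 for Tcf7. The cause was not tested. Of 1101 alternative values for 48 named genes, 25 reversed. Lgr5 and Axin2 had the fewest reads of the 10 genes, 1287 and 1491 over all libraries. Of the 23 alternative fits, Lgr5 kept its sign in 22 and Axin2 in 23, while Lect2, with 20949 reads, kept it in 20.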
